A study of Mus musculus with 9 samples.

Results

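Described here are 5 transcription factors of the thyroid, Pax8, Nkx2-1, Foxe1, Hhex and Glis3, out of 52636 genes counted in single cells of the adult mouse thyroid. They were chosen by name as the known thyroid transcription factors, and their unique molecular identifiers (UMIs, 1 per captured transcript) were summed per sample and per cell label of the authors' annotation. All 5 members were counted and all 5 passed the filter on low counts in thyrocytes. The 9 samples hold 10186 cells under 16 labels. Every mouse was a male C57BL/6 animal with no genetic change named in the labels, aged 10 to 12 weeks in the series' design text and 10 to 14 weeks in the treatment protocol, and each sample pooled the thyroids of 6 mice. RW mice received an anti-ragweed isotype control antibody at 40 mg/kg. The aJ1aJ2 mice received anti-Jag1 and anti-Jag2 at 20 mg/kg each, which blocks these Notch ligands, and the aN1aN2 mice anti-Notch1 at 5 mg/kg and anti-Notch2 at 10 mg/kg, which blocks these receptors. Each antibody was given once, into the peritoneal cavity, the labels give 7 days, and each group has 3 samples. Antibodies given this way are not limited to thyrocytes.

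Thyrocytes are the follicular cells that make thyroid hormone. Pax8, a paired-box factor, Nkx2-1 and Hhex, homeobox factors, and Foxe1, a forkhead factor, are expressed together in the thyroid primordium and remain expressed in follicular cells, where Pax8, Nkx2-1 and Foxe1 bind regulatory regions of hormone genes such as Tg. Glis3, a zinc-finger factor, acts with the signal of thyroid-stimulating hormone on genes of iodide uptake and hormone synthesis. Inherited loss of function of Pax8, Nkx2-1, Foxe1 or Glis3 is a known cause of thyroid that fails to form, to migrate or to make hormone.

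In thyrocytes (label Th1), Foxe1 fell by 0.97 on the log2 scale under receptor blockade and Hhex fell by 0.49, while Pax8 and Nkx2-1 rose by smaller amounts, 0.31 and 0.27, that passed the test but lost it in 9 and 18 of 21 other settings. Glis3 was lower without passing the test. No member passed the test under ligand blockade. Foxe1 was also lower under receptor than under ligand blockade. Across the 16 labels, Pax8, Nkx2-1 and Foxe1 were nearly confined to the 3 labels with thyroid RNA (Th1, Th2 and Th3), whereas Hhex was also present in endothelial cells and macrophages.

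The Th1 label held 1169 cells, 62 to 193 per sample, with 872716 to 5233988 UMIs per sample, and all 10 thyrocyte markers were detected in it, Slc26a4 with only 7 UMIs. The median UMIs per Th1 cell were 12535 to 22558 in RW, 9968 to 15314 in aJ1aJ2 and 5737 to 7558 in aN1aN2 samples, so the aN1aN2 cells were the shallowest. The sample titles carry internal numbers in 3 ranges: RW 3 and aJ1aJ2 1 in the lowest, RW 1, RW 2, aJ1aJ2 3 and aJ1aJ2 4 in the middle one, and all 3 aN1aN2 samples alone in the highest. The receptor blockade and that highest range cannot be told apart. Samples of 1 group differed beyond the counting noise of independent UMIs (chi-square per degree of freedom 1.73 to 8.92 over the pairs). That measure takes no account of variation between cells. Of 10171 distinct cell barcodes, 15 occurred in more than 1 sample. Markers of other cells were present in Th1: the summed C cell list reached 64.0 to 2653 CPM (counts per 1000000 UMIs of the Th1 cells of a sample) and the endothelial list 148 to 848 CPM per sample, with overlapping ranges between the 3 groups. Parathyroid markers summed to 14.0 to 51.8 CPM in RW, 24.2 to 72.7 CPM in aJ1aJ2 and 128 to 295 CPM in aN1aN2 samples, and the Schwann cell list to 225 to 248, 163 to 198 and 87.1 to 99.1 CPM, mostly S100b, with Sox10 at 0. The part of parathyroid and Schwann cell markers in the results was not tested. Values in Th1 cells with at most 2 Calca UMIs and none of Kdr, Pecam1 or Cdh5 (called screened cells below) are given with each called member. Other C cell and endothelial markers were not screened, and the limits were not scaled to the depth of the cell.

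Pax8 is encoded at chr2:24420560-24475599 on the minus strand and Nkx2-1 at chr12:56531958-56536908 on the minus strand (GRCm38). The first is a regulator of Tg and the iodide transporter and the second of Tg and Tshr. The 250 bases before each start site (RefSeq, GRCm38.p6) are shown because these 2 members rose together and had similar profiles over the labels; capitals in Pax8 mark a CCAAT box at bases -57 to -53 from the start site, and the window of Nkx2-1 held no CCAAT on either strand. For Pax8 the window is chr2:24475600-24475849 and for Nkx2-1 chr12:56536909-56537158, both printed on the minus strand.
Pax8: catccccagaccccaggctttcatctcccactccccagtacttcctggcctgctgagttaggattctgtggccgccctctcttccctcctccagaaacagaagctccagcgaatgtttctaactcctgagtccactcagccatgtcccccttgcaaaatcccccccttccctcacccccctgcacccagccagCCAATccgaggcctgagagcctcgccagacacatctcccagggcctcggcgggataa
Nkx2-1: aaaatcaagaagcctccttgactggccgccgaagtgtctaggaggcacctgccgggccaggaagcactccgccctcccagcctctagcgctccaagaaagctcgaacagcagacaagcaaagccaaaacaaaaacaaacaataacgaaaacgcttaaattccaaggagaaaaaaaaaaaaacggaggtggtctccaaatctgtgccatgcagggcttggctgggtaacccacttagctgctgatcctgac
Of 32851 promoter windows of the same length in the table, 33.8% held CCAAT on either strand, as did that of Hhex, at bases -119 to -115 on the opposite strand. The letters TGGGAA (the core bound by RBPJ, the DNA-binding factor of the Notch pathway), CAAGTG (an NKX2 core) and TAAACA (a forkhead core) were searched on both strands. None occurred in the windows of Pax8, Nkx2-1, Hhex or Glis3, and 21.6%, 11.6% and 12.0% of all windows held them. These are matches of letters in 1 window and describe no binding. Foxe1 was not matched in the promoter table.

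The levels of the members in each sample are CPM scaled with edgeR's TMM factors. A sum over cells does not tell fewer cells with the transcript from less transcript per cell. Pax8 stood at 307, 293 and 326 CPM in RW 1, 2 and 3, at 389, 318 and 323 CPM in aJ1aJ2 1, 3 and 4, and at 384, 407 and 361 CPM in aN1aN2 1, 2 and 3. All aN1aN2 samples were above all RW samples, and aJ1aJ2 1 was the only aJ1aJ2 sample within the aN1aN2 range. Group means were 309 ± 16.6, 343 ± 39.6 and 384 ± 22.6 CPM (SD, n = 3 each). Between aN1aN2 and RW the log2 change was 0.31 (SE 0.11, 95% interval 0.09 to 0.54, adjusted p = 0.0314 in edgeR's quasi-likelihood fit, Benjamini-Hochberg adjusted over all genes). That call held in 12 of 21 other settings with the same direction in all 21. It was lost without RW 1 (0.32, adjusted p = 0.0801), without RW 2 (0.28, adjusted p = 0.110), without aN1aN2 1 (0.32, adjusted p = 0.0864) and without aN1aN2 2 (0.27, adjusted p = 0.129), all in edgeR. In the screened cells it was 0.19 (edgeR, adjusted p = 0.215), and in cells thinned to 3000 UMIs it was 0.21 (adjusted p = 0.335).

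Nkx2-1 stood at 329, 338 and 307 CPM in RW 1, 2 and 3, at 341, 407 and 390 CPM in aJ1aJ2 1, 3 and 4, and at 388, 384 and 401 CPM in aN1aN2 1, 2 and 3. The lowest aJ1aJ2 sample was just above the highest RW sample, and the aN1aN2 samples lay together within the aJ1aJ2 range. Means were 325 ± 16.1, 380 ± 34.1 and 391 ± 9.27 CPM (SD, n = 3). The log2 change under receptor blockade was 0.27 (SE 0.099, 95% interval 0.06 to 0.48, edgeR adjusted p = 0.0473). It held in 3 of 21 other settings and was lost on leaving out each of the 6 samples compared (0.23 to 0.29), so its call is less firm than that of Foxe1 or Hhex, which held in 21 of 21. In the screened cells it was 0.27 (edgeR adjusted p = 0.0506). The change under ligand blockade was 0.23 (95% interval 0.02 to 0.44), with edgeR adjusted p = 0.357.

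Foxe1 (chr4:46343609-46346412 on the plus strand, with 1 annotated exon), the forkhead factor of Tg, showed the largest called change of the 5 members. RW 1, 2 and 3 had 507, 664 and 613 CPM, aJ1aJ2 1, 3 and 4 had 709, 456 and 488 CPM, and aN1aN2 1, 2 and 3 had 354, 241 and 312 CPM. Every aN1aN2 sample was below every RW and every aJ1aJ2 sample, while aJ1aJ2 1 was the highest of all 9 and the other aJ1aJ2 samples were below every RW sample. Means were 595 ± 79.8, 551 ± 138 and 303 ± 57.2 CPM (SD, n = 3). Against RW, Foxe1 fell by 0.97 in log2 under receptor blockade (SE 0.17, 95% interval -1.34 to -0.61, 1.96-fold, edgeR adjusted p = 0.000512), and against aJ1aJ2 by 0.86 (SE 0.17, 1.82-fold, edgeR adjusted p = 0.00230). The first call held in 21 of 21 other settings and the second in 19 of 19. In the screened cells Foxe1 fell by 0.81 against RW (edgeR adjusted p = 0.000233). Against RW, the ligand blockade gave -0.11 (95% interval -0.47 to 0.25, edgeR adjusted p = 0.840). On leaving out 1 sample it ranged from -0.33 without aJ1aJ2 1 to 0.013 without aJ1aJ2 3, and was -0.22 without RW 1, -0.030 without RW 2 and -0.033 without aJ1aJ2 4, none of them called by edgeR.

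An antisense gene, Gm12446, lies on the opposite strand of Foxe1 and shares exon bases with it, with 2493 UMIs in Th1. Whether the counting used strand is not given in the sources used here, so reads of Foxe1 and Gm12446 cannot be told apart. Gm12446 fell by 0.96 under receptor blockade against RW (SE 0.15, edgeR adjusted p = 0.00014), close to the change of Foxe1, and by 0.65 against aJ1aJ2 (edgeR adjusted p = 0.00553). It changed by -0.31 under ligand blockade (edgeR adjusted p = 0.363). Other overlapping genes held few UMIs, 39 at most for Gm26973 at Nkx2-1.

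Hhex (chr19:37434810-37440731 on the plus strand), a homeobox factor of the thyroid, liver and endothelium, was lower in every aN1aN2 sample than in any other sample. It stood at 159, 175 and 153 CPM in RW 1, 2 and 3, at 148, 138 and 151 CPM in aJ1aJ2 1, 3 and 4, and at 129, 96.3 and 120 CPM in aN1aN2 1, 2 and 3. The 3 groups did not overlap, with RW the highest and aN1aN2 the lowest. Means were 162 ± 11.3, 146 ± 6.45 and 115 ± 17.0 CPM (SD, n = 3). Hhex fell by 0.49 in log2 against RW (SE 0.12, 95% interval -0.75 to -0.23, 1.41-fold, edgeR adjusted p = 0.00555), in 21 of 21 other settings too. In the screened cells it fell by 0.45 (edgeR adjusted p = 0.0255). Against aJ1aJ2 the change was -0.34 (SE 0.12, edgeR adjusted p = 0.0599), without aN1aN2 1 it was -0.45 (edgeR adjusted p = 0.0471) and without aN1aN2 2 it was -0.21 (edgeR adjusted p = 0.315). Under ligand blockade it was -0.15 (95% interval -0.40 to 0.09, edgeR adjusted p = 0.642). Hhex is also an endothelial gene. In the Th1 cells of RW samples, summed, Kdr stood at 113 CPM and Hhex at 157 CPM, and the 4 endothelial labels held 0.0124 to 0.287 Hhex UMIs per Kdr UMI. The part of endothelial RNA in the Hhex level was not tested.

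Glis3 (chr19:28258851-28680077 on the minus strand) varied widely among the RW samples. It stood at 39.7, 25.6 and 14.2 CPM in RW 1, 2 and 3, at 18.8, 16.8 and 18.1 CPM in aJ1aJ2 1, 3 and 4, and at 15.4, 15.8 and 9.67 CPM in aN1aN2 1, 2 and 3. RW 3 lay within the aN1aN2 range and RW 1 was far above all others, so the RW samples overlapped both other groups. The log2 change under receptor blockade was -0.89 (SE 0.34, 95% interval -1.62 to -0.16, edgeR adjusted p = 0.0570). Without RW 1 it was -0.34 (edgeR adjusted p = 0.400) and without RW 3 it was -1.26 (edgeR adjusted p = 0.00131). Under ligand blockade it was -0.58 (95% interval -1.22 to 0.06, edgeR adjusted p = 0.459), -0.052 without RW 1 and -0.95 without RW 3 (edgeR adjusted p = 0.0493). Only 490 Glis3 UMIs were counted in Th1, so its level rests on few molecules.

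**Figure D1:**
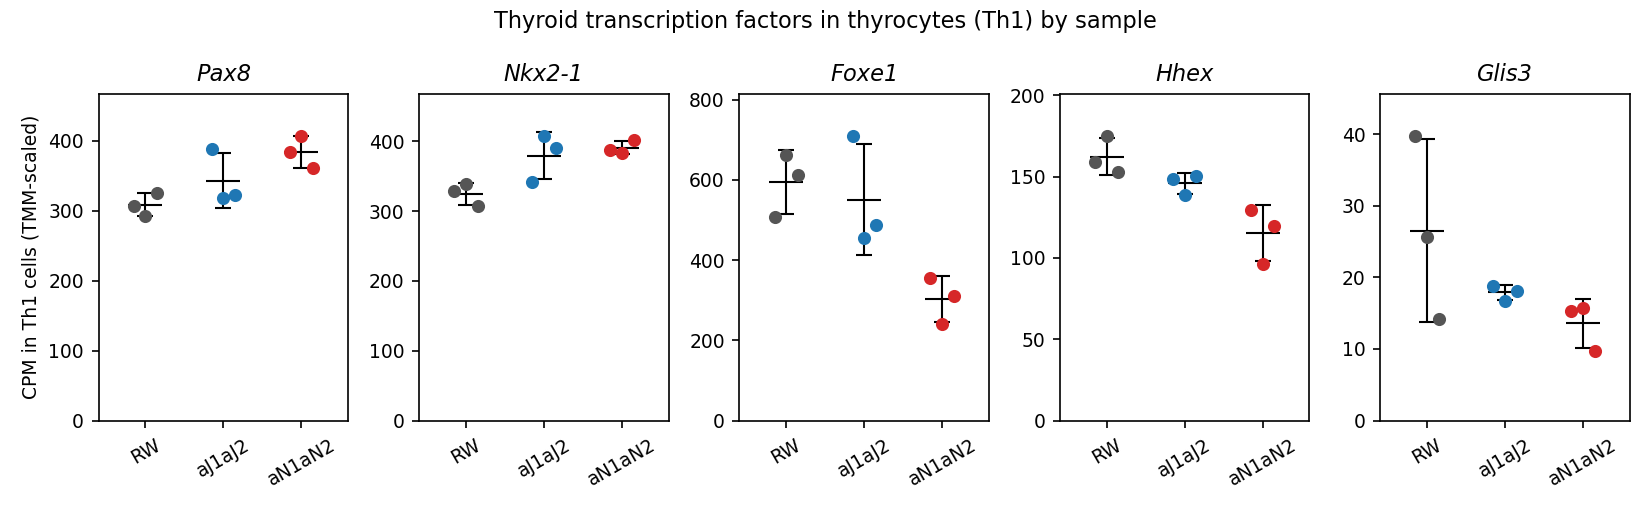
Each panel plots the CPM of 1 member in Th1 cells for the 9 samples (points; horizontal bar, group mean; whiskers, SD, n = 3). The aN1aN2 samples lie below all others for Foxe1 and Hhex (241 to 354 CPM and 96.3 to 129 CPM) and above all RW samples for Pax8 and Nkx2-1. The share of all genes whose samples separate in this way was not counted.

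Counted over the members, edgeR called 4 of 5 under receptor blockade, 2 lower and 2 higher, where 34.4% of the 10627 genes tested were called, 17.1% higher and 17.3% lower. Under ligand blockade 0 of 5 were called, beside 0.612% of genes, 1 member had an unadjusted p under 0.05 (Nkx2-1, 0.0335), and DESeq2 also called 0. Between receptor and ligand blockade 1 of 5 was called, beside 22.3% of genes. The median log2 change of the members was -0.49 under receptor blockade and that of all genes tested 0.02. That median is the value of Hhex, with Foxe1 and Glis3 below it and Pax8 and Nkx2-1 above 0. The number called under receptor blockade was 2 (Foxe1 and Hhex) in DESeq2, in thinned cells and in the screened cells. It was also 2 without RW 1, RW 2, aN1aN2 1 or aN1aN2 2. The aN1aN2 and aJ1aJ2 comparisons against RW share the RW samples.

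**Figure D2:**
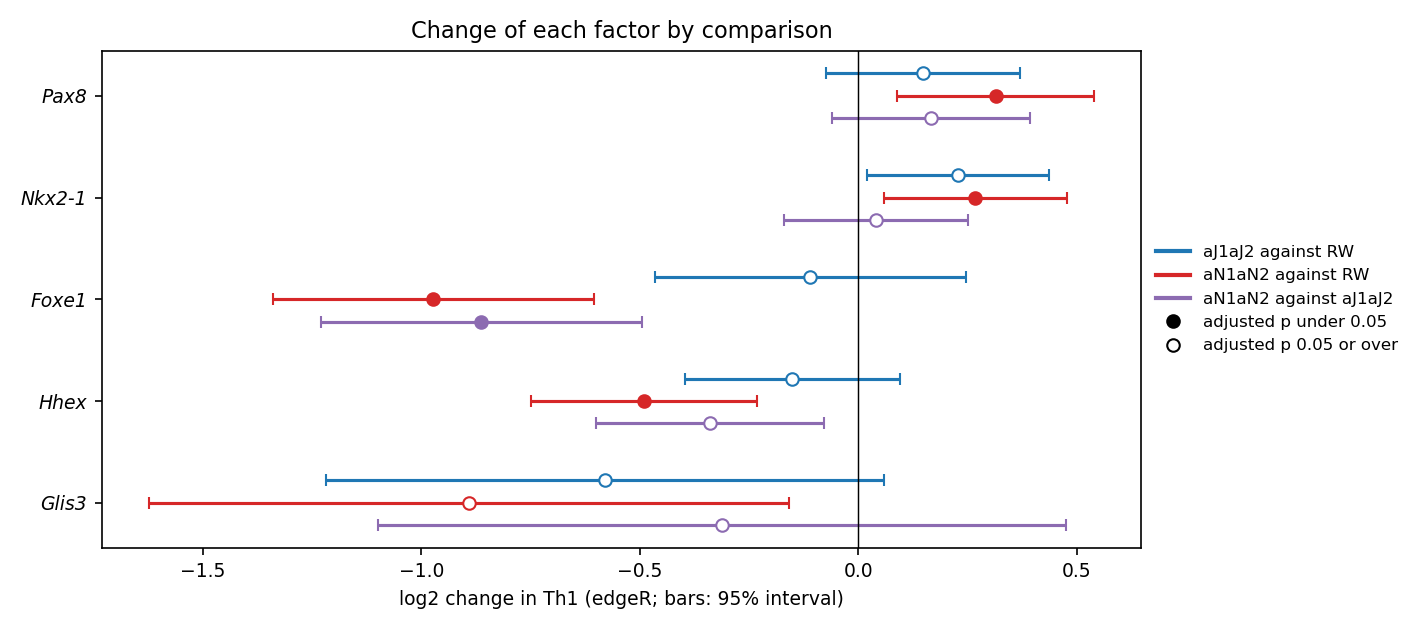
The horizontal axis is the log2 change in Th1 from edgeR and the bars are 95% intervals, by member and comparison; filled points have an adjusted p under 0.05. Foxe1 and Hhex lie below 0 and Pax8 and Nkx2-1 above 0 in aN1aN2 against RW, and no aJ1aJ2 point is filled.

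Expressed as a mix, the members' shares of their summed UMIs in Th1 do not depend on the scaling of libraries, and each gene's share depends on how well it is captured, so shares are compared between groups only. Foxe1 took 37.8%, 44.4% and 43.4% of the UMIs of the 5 factors in RW 1, 2 and 3, 44.1%, 34.1% and 35.6% in aJ1aJ2 1, 3 and 4, and 27.9%, 21.1% and 25.9% in aN1aN2 1, 2 and 3. No aN1aN2 sample reached the lowest RW or aJ1aJ2 sample. Means were 41.8 ± 3.56%, 38.0 ± 5.41% and 24.96 ± 3.50% (SD, n = 3). Pax8 went from 21.9 ± 1.96% in RW to 31.9 ± 3.15% in aN1aN2 and Nkx2-1 from 23.0 ± 1.43% to 32.5 ± 1.68%, also without overlap, and Hhex from 11.5 ± 0.557% to 9.52 ± 0.954%. The exact two-sided permutation p for each of these 4 differences against RW was 0.1, the smallest that 3 against 3 samples allow, and 0.1875 after adjustment over 15 comparisons. The 5 shares sum to 100%, so these differences are not independent: a lower Foxe1 share raises the other shares by arithmetic.

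**Figure D3:**
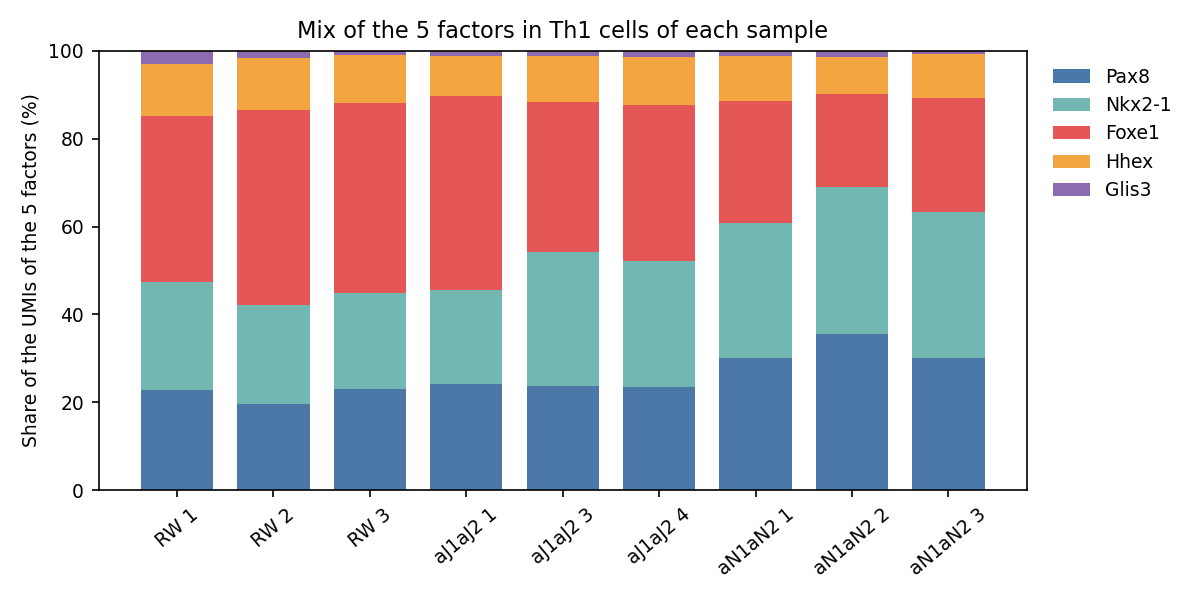
Stacked bars give, for each of the 9 samples, the share (%) of the summed UMIs of the 5 factors in Th1 cells that each factor took. The Foxe1 band shrinks from 37.8% to 44.4% in RW to 21.1% to 27.9% in aN1aN2 samples, and the Pax8 and Nkx2-1 bands widen.

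The share of Th1 cells with a UMI was compared at equal depth, after thinning each cell to 3000 UMIs and leaving out shallower cells (3 of RW, 7 of aJ1aJ2 and 70 of aN1aN2). Foxe1 was then detected in 76.1%, 81.9% and 83.6% of cells in RW 1, 2 and 3, in 88.9%, 74.3% and 72.2% in aJ1aJ2 1, 3 and 4, and in 70.2%, 54.9% and 53.3% in aN1aN2 1, 2 and 3. Every aN1aN2 sample was below every other sample. The means were 80.6 ± 3.95% in RW and 59.5 ± 9.33% in aN1aN2 (n = 3, exact permutation p = 0.1, adjusted 0.5), and without thinning 98.3% and 77.5%. For Pax8 the thinned means were 59.2%, 67.4% and 62.6% in RW, aJ1aJ2 and aN1aN2, for Nkx2-1 63.9%, 64.0% and 60.2%, for Hhex 37.1%, 31.6% and 30.0%, and for Glis3 5.76%, 5.47% and 5.15%. At this depth the aN1aN2 and RW samples of these 4 members overlapped, and the aJ1aJ2 and RW samples did not overlap for Hhex (exact permutation p = 0.1, adjusted 0.5). These shares changed with the depth. Thinned to 1500 and to 5000 UMIs, the Hhex share differed between aJ1aJ2 and RW by -1.21 and -3.03 percentage points, with overlap (exact permutation p = 0.6 each). Nkx2-1 in aN1aN2 minus RW turned from -3.74 points at 3000 UMIs to 0.13 at 1500 and 5.09 at 5000. Pax8 at 5000 UMIs was 81.6% in aN1aN2 and 73.7% in RW, without overlap (exact permutation p = 0.1, adjusted 0.375), and its difference between aN1aN2 and aJ1aJ2 turned from -4.79 points to 2.59 at 1500 and 2.52 at 5000. Foxe1 in aN1aN2 stayed below RW without overlap at both other depths (differences of -17.4 and -15.9 points). In fibroblasts (label F, median 5632 UMIs), a cell type not known to express Foxe1, 1.30% of unthinned cells had a Foxe1 UMI (95% Wilson interval 0.63 to 2.66%).

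The factors were often found in 1 cell together. Of the 1089 thinned Th1 cells, 34 had none of the 5, 165 had 1, 377 had 2, 391 had 3, 118 had 4 and 4 cells, 0.367%, had all 5. Between 47.2% and 57.8% of cells had at least 3 members in RW samples, 42.4% to 56.5% in aJ1aJ2 samples and 35.3% to 42.2% in aN1aN2 samples. At this depth all 3 aN1aN2 samples were below the other 6, the highest of them by a narrow margin under aJ1aJ2 3, and thinned to 1500 or 5000 UMIs the aN1aN2 samples overlapped both other groups.

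Across the 16 labels, levels are described with no test, as labels are clusters of the same cells, and intervals cover counting error only. Pooled over samples, Pax8 stood at 353 CPM in Th2 (95% interval 271 to 453), 333 CPM in Th1 (326 to 340) and 168 CPM in Th3 (148 to 190), and at most 8.67 CPM in any of the other 13. Th1 and Th2 do not differ beyond these intervals. Of all Pax8 UMIs, 98.3% lay in the 3 thyroid labels, of Nkx2-1 98.6% and of Foxe1 99.0%. Nkx2-1 stood at 524 CPM in Th2 (422 to 642), 353 CPM in Th1 and 191 CPM in Th3, and at most 9.13 CPM elsewhere. Foxe1 had another order, 505 CPM in Th1, 308 CPM in Th3 and 108 CPM in Th2 (65.1 to 169), and at most 7.92 CPM elsewhere; it had 0 UMIs in the parathyroid label P, which allows up to 2.90 CPM, the level of 3 UMIs.

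Th2 therefore stood apart in the balance of the factors. It had 4.84 Nkx2-1 and 3.26 Pax8 UMIs per Foxe1 UMI, against 0.700 and 0.660 in Th1 and 0.621 and 0.546 in Th3. Th2 is a small label of 137 cells with a median of 1014 UMIs, and its Malat1 level, a nuclear RNA, was 97196 CPM against 15606 CPM in Th1 and 5637 CPM in Th3. Its ratios rest on 19 Foxe1 UMIs. The neutrophil list summed to 19540 CPM in Th2 and to 1.84 CPM in Th1. The part of depth, nuclear RNA and neutrophil RNA in the result was not tested. Th3 held 27510 CPM of the C cell gene Calca, against 1092 CPM in Th1, beside 79768 CPM of thyroglobulin (Tg), and its skeletal muscle list summed to 16180 CPM.

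Hhex extended beyond the thyroid labels, with 78.02% of its UMIs in them, 19.4% in the 4 endothelial labels, and the rest divided between macrophages (60 UMIs) and the other labels (58 UMIs). It stood at 144 CPM in Th1, 97.7 CPM in Th3, 95.4 CPM in EC3, 79.7 CPM in Th2, 64.4 CPM in EC2, 46.1 CPM in EC1, 43.2 CPM in the macrophage label M, 39.4 CPM in EC4, 16.7 CPM in SM and 10.3 CPM in T1. In SM, 9 of the 13 Hhex UMIs came from 8 cells of RW 1. Th3 and EC3 do not differ beyond their intervals (82.6 to 115 and 84.4 to 107 CPM), and EC1, M and EC4 overlap as well. Of EC3 cells 37.3% had a Hhex UMI (95% Wilson interval 32.5 to 42.3%, median 4624 UMIs), against 0.743% of fibroblasts (0.289 to 1.90%, median 5632 UMIs) and 0 of 1092 Eryth2 cells.

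The number of Hhex UMIs per Tg UMI was 0.00157 in Th1, 0.0473 in EC1, 0.0812 in EC2, 0.0805 in EC3, 0.0174 in EC4 and 0.0345 in M, and 0.00346 in Eryth1 and 0.00306 in F. The part of free thyrocyte RNA in these levels was not tested. A UMI of Pax8, Nkx2-1 or Foxe1 was found in 10.7% of EC1 cells with Hhex and 7.36% of those without, in 8.09% and 3.49% of EC3 cells, in 11.6% and 4.48% of M cells, in 4.26% and 2.30% of EC4 cells and in 1.47% and 1.76% of EC2 cells. Cells without Hhex were shallower in each of these labels, with medians of 3682 against 8348 UMIs in EC1 and 1020 against 8890 UMIs in M. Glis3 was low everywhere: 20.9 CPM in Th1, 14.5 CPM in Th3, 5.69 CPM in Th2 (1 UMI), 5.63 CPM in EC3, 4.85 CPM in F and 3.87 CPM in P.

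**Figure D4:**
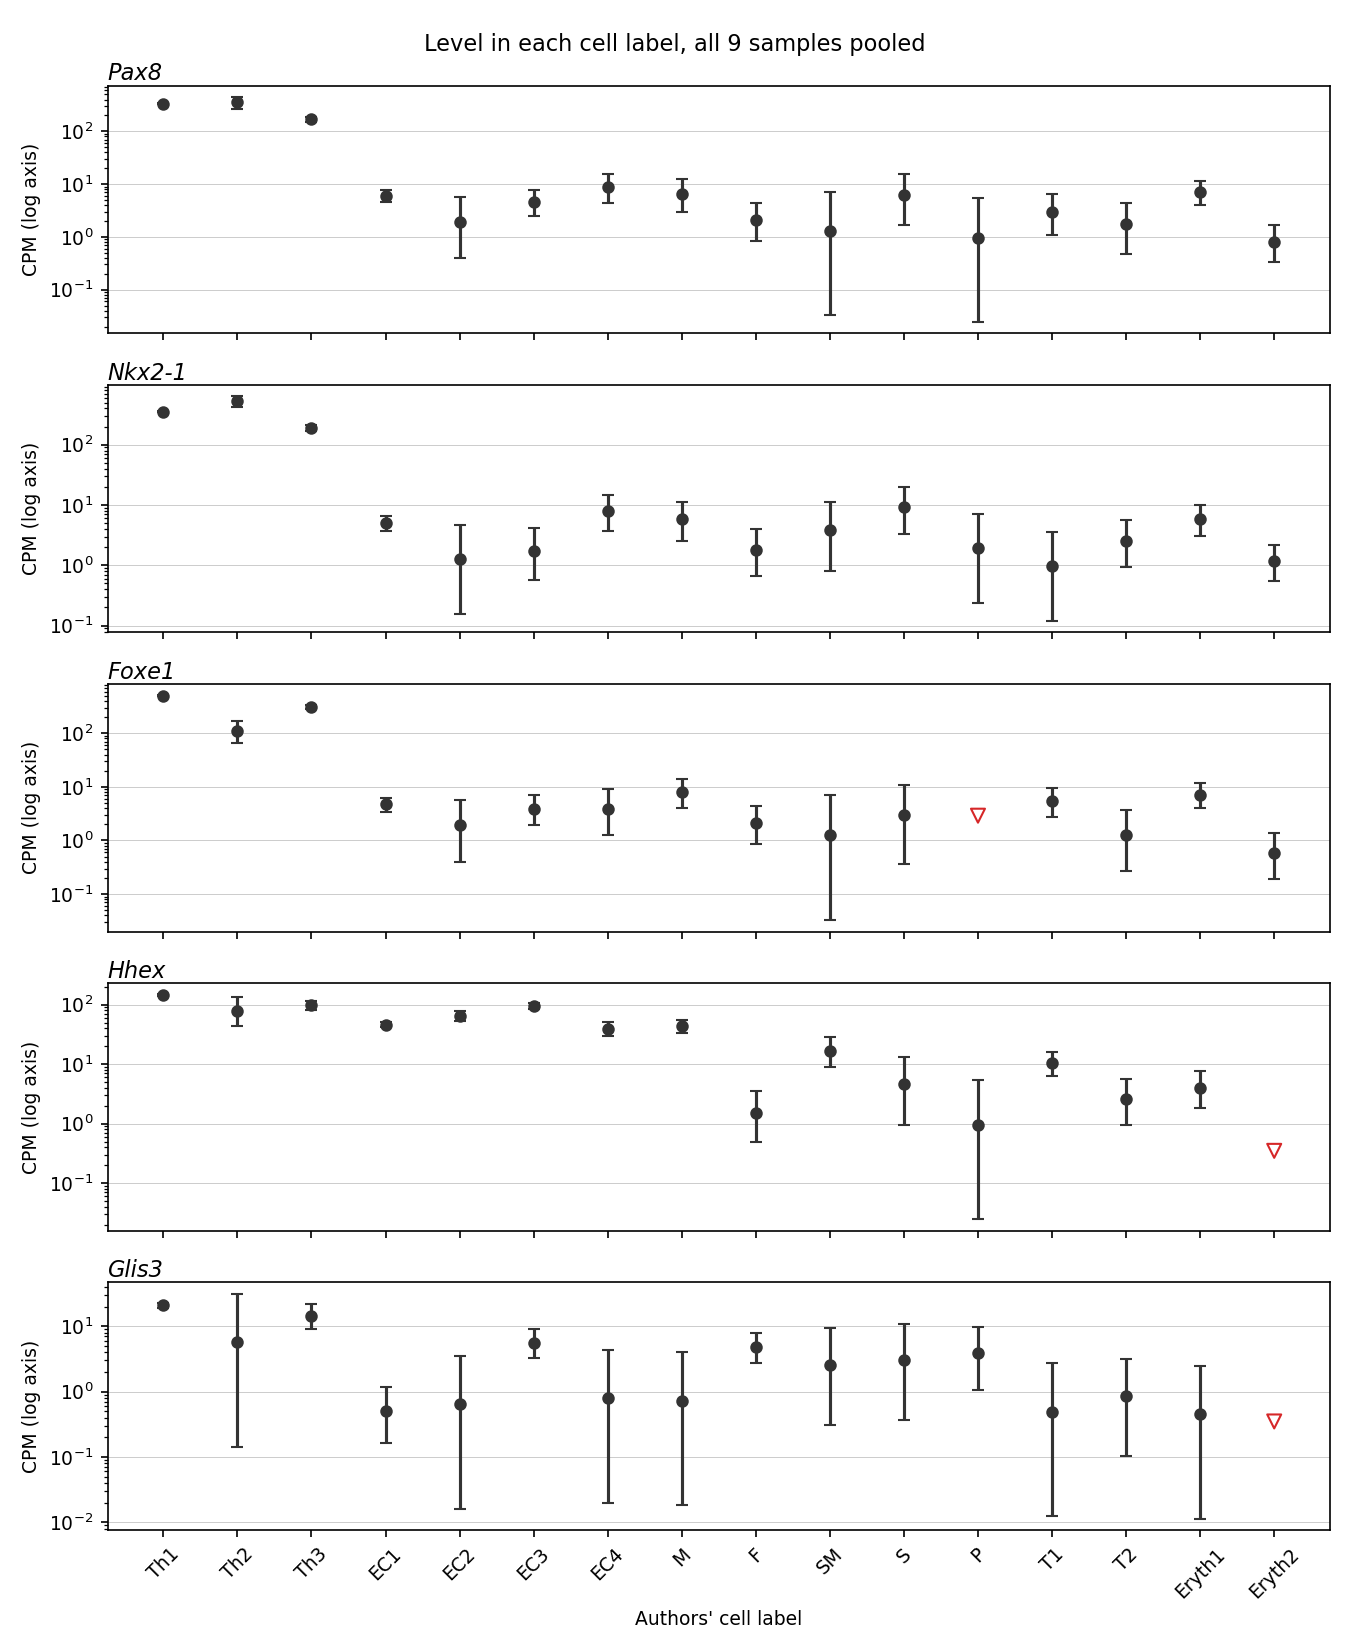
Pooled CPM of each member (log axis) in each of the 16 labels, with bars for 95% counting intervals; open triangles mark labels with 0 UMIs at the level that 3 UMIs would give. Pax8, Nkx2-1 and Foxe1 stand high in Th1, Th2 and Th3 and under 10 CPM elsewhere, while Hhex reaches 95.4 CPM in EC3.

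By likeness over the 16 labels (Pearson r of log2(CPM + 1), among 9554 genes with at least 500 UMIs; labels share libraries and depth), the genes most like Pax8 included Slc26a7 (0.984) and Nkx2-1 (0.978). Those most like Nkx2-1 were Pax8, the zinc-finger factor Sall1 (0.967) and Nkx2-2 (0.964). Foxe1 was most like Cdh16, a thyroid cadherin (0.981), Fxyd4 (0.977) and its antisense neighbour Gm12446 (0.976). Hhex was most like AU021092 (0.904), the ion channel gene Piezo1 (0.900) and Irak2 (0.899), and those most like Glis3 included Fkbp11 (0.922) and Scx (0.915). Among the members, Foxe1 and Pax8 had r = 0.967, Hhex and Pax8 0.660, and Glis3 and Pax8 0.691.

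In the 12 other labels where samples allowed a fit, members passed the filter in 4, giving 24 tests, of which 1 was called and 4 had an unadjusted p under 0.05. Hhex did not pass the test in EC1, EC2 or EC3. In EC2 its change was -1.05 under receptor blockade (95% interval -2.30 to 0.21, edgeR adjusted p = 0.263). Under ligand blockade it was -0.74 there (95% interval -1.70 to 0.23, edgeR adjusted p = 0.458). In EC3 it was -0.11 under receptor and 0.04 under ligand blockade. Beside those tests, 1.91%, 15.5% and 10.5% of genes were called in EC2 and 0.0618%, 5.91% and 1.27% in EC3, in the order ligand against RW, receptor against RW and receptor against ligand blockade. In EC1 its change was -0.16 under receptor blockade (95% interval -0.63 to 0.32, edgeR adjusted p = 0.703, beside 17.8% of genes called) and -0.04 under ligand blockade (95% interval -0.40 to 0.32, edgeR adjusted p = 0.977, beside 1.43%). EC1 values were 48.5, 45.4 and 48.6 CPM in RW 1, 2 and 3, 35.9, 44.7 and 53.9 CPM in aJ1aJ2 1, 3 and 4, and 38.9, 51.0 and 38.2 CPM in aN1aN2 1, 2 and 3, with overlapping groups. Kdr, an endothelial receptor, fell by 2.47 in EC1 under receptor blockade (edgeR adjusted p = 3.55e-12). Fitted with both labels in 1 model, the change of Hhex in Th1 minus that in EC1 was -0.26 under receptor blockade (edgeR adjusted p = 0.631), 0.04 without aN1aN2 2 and -0.43 without aN1aN2 1. Hhex and Pax8 were the members that passed the filter in EC1, and neither was called in that model in any of the 3 comparisons, where 0.369%, 8.69% and 4.91% of genes were called. For Pax8 the difference under receptor blockade was -1.33 (edgeR unadjusted p = 0.0157, adjusted p = 0.117), and -0.80 without aN1aN2 1 (edgeR adjusted p = 0.628). Foxe1, Nkx2-1 and Glis3 did not pass the filter in EC1 alone but were fitted in the model of both labels, where none was called. Under receptor blockade their differences were -1.96 for Foxe1 (edgeR unadjusted p = 0.0128, adjusted p = 0.103) and 0.45 for Nkx2-1 (edgeR adjusted p = 0.815). For Glis3 the difference was 1.89 (edgeR adjusted p = 0.755). These values rest on few UMIs in EC1.

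In Th3, Foxe1 was lower by 1.14 under receptor blockade and Hhex by 1.53 on the log2 scale, but neither passed the test (edgeR adjusted p = 0.205 and 0.128, beside 5.03% of genes called; 0% were called in Th3 under ligand blockade and 1.44% between the blockades). Hhex stood at 158, 208 and 83.2 CPM in RW 1, 2 and 3 and at 53.1, 35.6 and 71.4 CPM in aN1aN2 1, 2 and 3, without overlap, on 4 UMIs in each aN1aN2 sample. The called test was Pax8 in EC1, higher by 1.69 under receptor blockade (SE 0.57, edgeR adjusted p = 0.0442) on 5, 4 and 10 UMIs in RW 1, 2 and 3 and 8, 2 and 4 UMIs in aN1aN2 1, 2 and 3; 13.5% of genes were called in EC1 between the blockades. Its values were 3.32, 3.08 and 4.54 CPM in RW 1, 2 and 3 and 18.3, 5.36 and 12.7 CPM in aN1aN2 1, 2 and 3. Some RNA of thyrocytes rose in EC1 with it: Tg by 0.82 (edgeR adjusted p = 0.00117) and the epithelial gene Epcam by 1.90 (adjusted p = 0.0102). Iyd was at -0.57 and did not pass the test (edgeR adjusted p = 0.491). The C cell gene Calca rose too, by 1.86. Their part in the result was not tested, and the call was lost without RW 1, RW 2, RW 3, aN1aN2 1 or aN1aN2 3 (log2 change 1.19 to 1.91, edgeR adjusted p 0.0576 to 0.358).

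Among thyroid hormone genes, 13 of 17 were tested in Th1, and 8 fell and 0 rose under receptor blockade, where 17.3% of all genes tested fell, with a median log2 change of -0.74 against 0.02 over all genes. The called genes included Slc5a5, the iodide transporter (-3.96), Dio1, a deiodinase (-1.61), Tshr, the receptor of thyroid-stimulating hormone (-1.47), Iyd, which recovers iodide (-1.42), Cdh16 (-1.36), Slc26a7 (-0.81) and Duoxa2 (-0.74). Tg stood at 91739 ± 3212 CPM in RW and 104311 ± 11829 CPM in aN1aN2 (SD, n = 3, edgeR adjusted p = 0.305). Under ligand blockade 1 of the 13 was called, Tshr at -0.93 (edgeR adjusted p = 0.0235), beside 0.612% of all genes. Against aJ1aJ2, 5 fell under receptor blockade and 0 rose, where 1224 of the 10627 genes tested fell.

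Of the 16 genes for cofactors and partners, all were tested, and under receptor blockade 4 rose and 2 fell, a share near that of all genes called (34.4%). The 4 called genes with the lowest p were Calr, the chaperone calreticulin (-3.24), Apex1, a redox and DNA repair factor that acts on Pax8 and Nkx2-1 (-1.30), Kcnip3 (0.72) and Yap1, a coactivator of the Hippo pathway (0.65). Their median was 0.16. Under ligand blockade 0 of 16 were called. A further list held 13 genes, most of them family relatives of the members, and only 4 passed the filter. Tle1, a corepressor, rose by 0.41 and Sufu fell by 0.76, neither of them of the members' families. Pax2, Pax5, Nkx2-4, Nkx2-5 and Foxe3 had no UMI in Th1. Of 12 genes of pharyngeal and thyroid development, 6 were tested and Isl1, a homeobox factor, rose by 0.60. These few calls stand beside the same 34.4% of all genes.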

How the data were processed

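Thyroids from 9 pools of 6 mice were digested to single cells and sequenced with the 10x Genomics 3' v2 kit, per the labels. The authors deposited raw UMI counts per gene and cell, whole numbers with no normalization, and an annotation with a cell label for each cell and, for 2142 cells, topic weights (a score). Cell Ranger and GRCm38 are named in the submitters' processing notes; how cells were called and labelled is not given in the sources used here. In 2619 annotation lines a comma shifted the columns, which was corrected. Symbols matched 52403 of 52636 gene identifiers. No other doublet step was applied.

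UMIs were summed per sample and label, and sums were fitted over 10627 genes in Th1 with edgeR 4.0.16 (R 4.3.3; TMM, quasi-likelihood test, 3 group means, Benjamini-Hochberg over all genes, adjusted p under 0.05), with filterByExpr, and in other labels with at least 20 cells per sample. DESeq2 1.42.0, other normalizations, filters and cell selections, and leaving out each sample were alternatives. Single values used exact two-sided permutation tests. P-values measure the spread between pools. Scripts were tested on simulated data. The members and lists were chosen with earlier results of these data known. Named were all 5 members, the called thyroid hormone genes, up to 4 called genes of other lists and the 3 genes most like each member; some of these are not reported here. Promoter windows came from RefSeq (GRCm38.p6).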

Additional observations from a re-analysis of the deposited data

How the results depend on the processing

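Over 21 other settings, Foxe1 and Hhex under receptor blockade against RW kept their direction and their call, at -1.11 to -0.82 and -0.60 to -0.36 on leaving out 1 sample. Pax8 and Nkx2-1 kept their direction but lost the call in 9 and 18. Outside the samples left out, Pax8 was 0.30 in DESeq2, 0.28 with no filter and 0.21 in cells thinned to 3000 UMIs. It was 0.19 in the screened cells (a setting added after seeing the data) and 0.29 with Th1, Th2 and Th3 summed. Without 1 sample it was 0.27 to 0.36. Nkx2-1 was 0.25 in DESeq2, 0.26 with DESeq2's size factors, 0.26 with library totals, 0.23 with no filter and 0.22 thinned. It was 0.25 in cells of at least 5000 UMIs, 0.27 in the screened cells and 0.29 with equal numbers of cells. With Th1 and Th3 summed it was 0.25, with Th1, Th2 and Th3 summed 0.26, and without 1 sample 0.23 to 0.29. Glis3 passed the test at -0.93 with no filter, -1.07 with equal numbers of cells and -0.98 with the 3 labels summed, and was -1.26 to -0.34 without 1 sample. The cause was not tested. The number of members called under receptor blockade, 4, was 2 in DESeq2, in thinned cells and in the screened cells, and 2 to 4 without 1 sample.

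With the replicate block over samples 1 and 2, Nkx2-1 was 0.21 (edgeR adjusted p = 0.0961), Glis3 -1.11 (edgeR adjusted p = 7.65e-05), Foxe1 -0.97, Hhex -0.55 and Pax8 0.39. The same samples with no replicate block gave 0.21 for Nkx2-1 and -1.17 for Glis3. The numbers share no label that pairs the samples, and same-numbered deviations had r = -0.04 over 10627 genes; with the block 3524 genes were called, without it 3370.

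Under ligand blockade the number of members called, 0, was 1 in the middle number range alone and 0 to 1 without 1 sample. Glis3 was then -1.02 in that range (edgeR adjusted p = 0.0117) and -0.95 to -0.052 without 1 sample. Against aJ1aJ2, 1 member was called, 2 with library totals and 1 to 2 without 1 sample; Hhex was -0.35 with library totals and -0.45 to -0.21 without 1 sample. Genes called under ligand blockade, 65, ranged from 1 without aJ1aJ2 3 to 649 in the middle number range alone; under receptor blockade 3653 fell to 1365 in thinned cells and against aJ1aJ2 2374 to 838, where 5263 genes were tested in place of 10627.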

Other observations

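How the authors' topic weights were made is not given in the sources used here, so a level by topic is a description. Among RW Th1 cells, Foxe1 stood at 584 CPM in the 366 cells led by topic 1, at 797 CPM in 23 cells led by topic 3, at 453 CPM in 21 led by topic 4 and at 295 CPM in 15 led by topic 5. Pax8 in the same cells of topics 1, 3, 4 and 5 stood at 315, 321, 394 and 225 CPM, with its highest pooled level in topic 4, on 60 UMIs. By sample, topic 4 was the highest in RW 2 and RW 3. In RW 1 topic 3 was higher, at 376 CPM against 356 CPM. Topic 2 led no RW cell, 40 aJ1aJ2 cells and 279 aN1aN2 cells; Foxe1 was 336 CPM in those aJ1aJ2 cells, against 586 CPM in the 257 aJ1aJ2 cells led by topic 1, and 287 CPM in those aN1aN2 cells. Those 40 aJ1aJ2 cells came from aJ1aJ2 3 (30 cells) and aJ1aJ2 4 (10 cells) alone, while the cells led by topic 1 include aJ1aJ2 1, at 678 CPM of Foxe1. Within aJ1aJ2 3 Foxe1 was 347 CPM in cells led by topic 2 and 522 CPM in those led by topic 1, and within aJ1aJ2 4 it was 295 and 605 CPM. Nkx2-1 was 539 CPM in the aJ1aJ2 cells led by topic 2 and 367 CPM in those led by topic 1.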
